A study of Homo sapiens with 6 samples.

Results

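Genes that restrain the MAP kinase pathway were examined in H9 cells, a human T-cell lymphoma line, upon inhibition of CDK9. The 10 genes were taken by symbol from the 61541 genes in the count table. They comprised 7 dual-specificity phosphatases (DUSP1, DUSP2, DUSP4, DUSP5, DUSP6, DUSP10 and DUSP16), the Sprouty genes SPRY1 and SPRY2, and the Sprouty-related gene SPRED2. H9 is a clonal derivative of the cutaneous T-cell lymphoma line HuT 78, and its genotype is given as WT in both groups. There were 3 libraries from cells given the vehicle DMSO and 3 from cells given AZD4573, a selective CDK9 inhibitor, at 50 nM for 4 h. All 6 libraries came from this 1 line. No label says whether the replicates were separate cultures, so that p-values measure the spread between these libraries, which may be technical.

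MAP kinases are relays that carry signals from growth factor, antigen and stress receptors to the nucleus. RAS proteins activate RAF kinases, which activate MEK and then ERK, while parallel chains activate JNK and p38. DUSPs switch the kinases off by removing phosphate from both the threonine and the tyrosine of the activation loop, and many of them are transcribed in response to the kinase that they then inactivate. Sprouty and Spred proteins act higher up, where they hold back the activation of RAS and RAF. In T cells this pathway lies downstream of the T-cell receptor. CDK9 phosphorylates RNA polymerase II and the factors that hold it near the start site, which releases it into the gene.

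Total counts ranged from 70367303 to 76571157 with DMSO and from 52101868 to 63795185 with AZD4573. Of 8 T-cell markers, CD3D, CD3E, CD3G, CD247 and LCK were abundant, and the 8 together reached between 831 and 866 CPM (counts relative to library totals scaled by TMM) with DMSO and between 1005 and 1021 CPM with AZD4573. CD4 and CD28 were low, at means of 3.82 and 5.85 CPM with DMSO and 6.98 and 4.35 CPM with AZD4573. CD2 had at most 13 counts in a library. Of markers of other cells, FCGR3A had no count in any library, but CD79A was at 57.8 ± 2.96 CPM with DMSO and 93.5 ± 4.99 CPM with AZD4573 (SD, n = 3), and EPCAM at 155 ± 10.3 and 134 ± 2.46 CPM. The 4 B-cell markers together ranged from 61.0 to 67.0 CPM with DMSO and from 92.4 to 103 CPM with AZD4573. The 3 epithelial markers ranged from 149 to 168 CPM and from 133 to 137 CPM, and the 4 myeloid markers stayed at or below 0.403 CPM in every library. The part of these shifts in the results was not tested. In bulk RNA, fewer cells of a type and less RNA per cell cannot be told apart. The mitochondrial genome encodes 13 mRNAs that RNA polymerase II does not transcribe, and these took from 3.04% to 3.22% of counts with DMSO and from 4.67% to 4.98% with AZD4573. With these mRNAs as the reference, the median log2 fold change over the genes tested was -0.71 in place of 0.03, so that each fold change is relative to the scaling named.

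Upon AZD4573 treatment, DUSP1 and DUSP5 fell 5.98-fold and 5.44-fold and DUSP6 rose 2.72-fold. DUSP2 rose 1.26-fold under TMM scaling but fell when scaled to the mitochondrially encoded mRNAs. DUSP4, DUSP10, DUSP16 and SPRED2 did not pass the test under TMM and were lower under the mitochondrial scaling. SPRY1 and SPRY2 had too few counts to be tested. A gene was called where the quasi-likelihood fit of edgeR gave an adjusted p (Benjamini-Hochberg, over the 17678 genes that passed the filter on low counts) under 0.05. Of these genes, 37.4% were called lower and 37.3% higher. Among the 8 genes tested here, 2 were lower and 2 were higher, and their median log2 fold change was 0.08 against 0.03 for all genes tested. Calls in either direction were thus no more frequent among these genes than over all genes tested. Where a fold of at least 1.5 was also asked for, DUSP1 and DUSP5 were lower and DUSP6 higher, against 23.7% and 22.7% of all genes tested, and at a fold of at least 2 the same 3 genes were called, against 13.9% and 15%. Under the mitochondrial scaling, 7 of the 8 genes were lower and 1 was higher, beside 11878 genes lower and 2144 higher in all. All AZD4573 libraries lay below all DMSO libraries for DUSP1 and DUSP5, which was the case for 38.7% of all genes tested. They lay above for DUSP2, DUSP6 and DUSP16, against 39% of all genes tested.

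**Figure D1:**
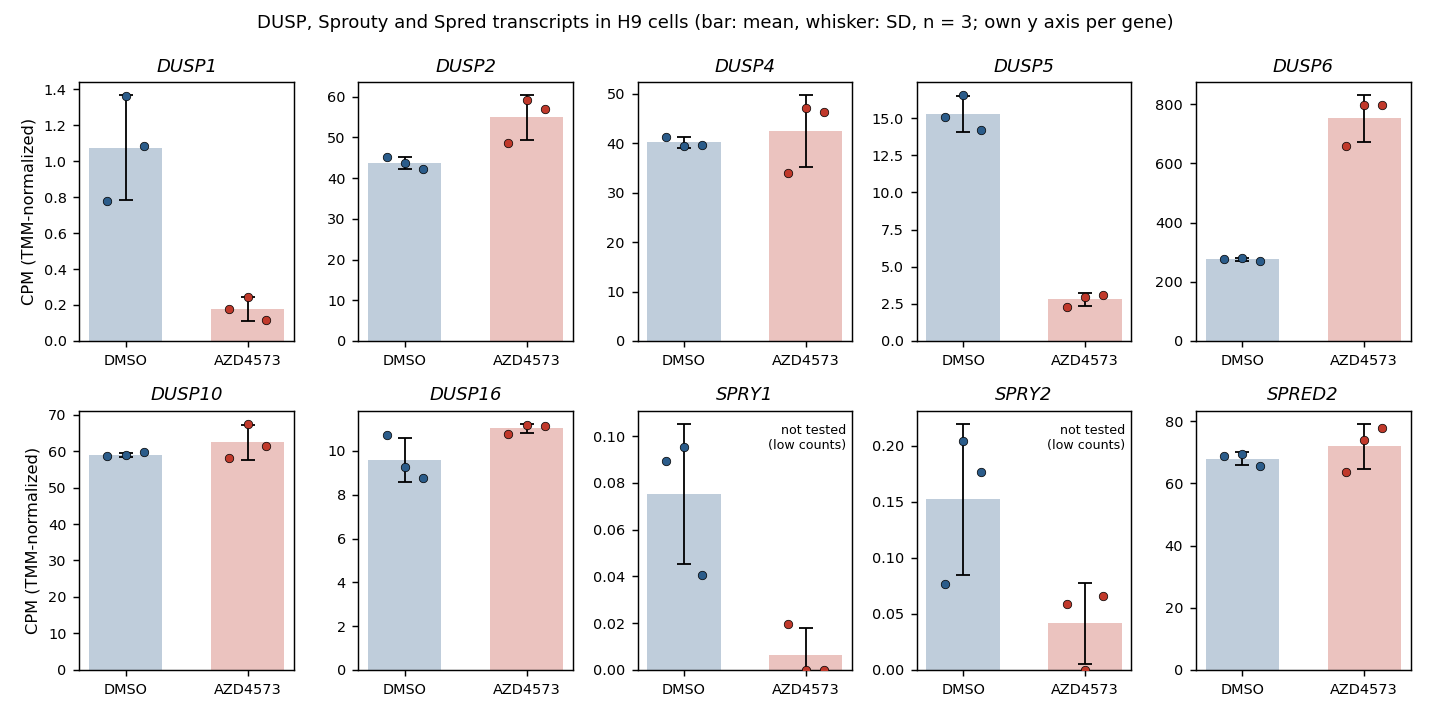
TMM-normalized CPM of the 10 genes in each library (y axes, each from 0 with its own range) with DMSO (blue) and AZD4573 (red), where points are libraries, bars are means and whiskers are SD (n = 3). The DUSP6 points lie between 271 and 280 CPM with DMSO and between 659 and 798 CPM with AZD4573, while those of DUSP5 drop from at least 14.2 CPM to at most 3.11 CPM.

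DUSP6 (ENSG00000139318) encodes a cytoplasmic phosphatase selective for ERK, and its transcript is widely used as a readout of ERK activity. The gene lies on chromosome 12 of GRCh38 from 89347235 to 89352501. DUSP6 was at 277, 280 and 271 CPM in the DMSO libraries and at 659, 798 and 798 CPM in the AZD4573 libraries. AZD4573 replicate 1 was the lowest treated library, but it still lay far above each DMSO library. The means were 276 ± 4.63 and 752 ± 80.5 CPM (SD, n = 3). On the log2 scale the change was 1.44 (SE 0.0649, edgeR adjusted p = 3.8e-10), which was above that of 89.5% of all genes tested. On the opposite strand, 1105 of the 3859 exon bases of DUSP6 are shared with ENSG00000274021, an antisense transcript, and the counting did not use strand. This antisense gene was at 10.5 ± 1.31 CPM with DMSO and 11.3 ± 2.31 CPM with AZD4573 (SD, n = 3), and differed by 0.11 on the log2 scale (edgeR adjusted p = 0.472). Scaled to the mitochondrially encoded mRNAs, DUSP6 still rose, by 0.70 on the log2 scale (adjusted p = 1.1e-08).

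DUSP5 (ENSG00000138166, chromosome 10 of GRCh38 from 110497907 to 110511533) encodes the nuclear counterpart of DUSP6, which also acts on ERK and retains it in the nucleus. DUSP5 was at 15.1, 16.6 and 14.2 CPM in the DMSO libraries and at 2.32, 2.96 and 3.11 CPM in the AZD4573 libraries. No treated library came near a DMSO library. The means were 15.3 ± 1.20 and 2.80 ± 0.422 CPM (SD, n = 3), and on the log2 scale the change was -2.44 (SE 0.112, edgeR adjusted p = 4.6e-10), a fold of 5.44. Only 1.49% of the genes tested had a lower fold change. DUSP5P1, a pseudogene whose reads could be confused with those of DUSP5, had between 10 and 38 counts in a library, against at least 118 for DUSP5. It did not pass the test, at a log2 fold change of 1.01 (edgeR adjusted p = 0.0576).

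DUSP1 (ENSG00000120129, chromosome 5 of GRCh38 from 172768096 to 172771195) encodes a nuclear phosphatase for p38, JNK and ERK and is a classical immediate-early gene. It was at 0.777, 1.36 and 1.09 CPM with DMSO and at 0.177, 0.246 and 0.115 CPM with AZD4573. Behind these values stood 61, 100 and 80 counts with DMSO and only 9, 14 and 7 counts with AZD4573. The gene was thus scarce in each library, and lower in all treated ones. The means were 1.08 ± 0.294 and 0.179 ± 0.0655 CPM (SD, n = 3). The log2 fold change was -2.58 with a 95% interval from -3.34 to -1.82 (edgeR adjusted p = 1.7e-05). The interval for DUSP5 ran from -2.69 to -2.20 and lay within that of DUSP1.

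The promoter of DUSP1 is shown because it was the only one among those examined that held a full cAMP response element (CRE), the binding site of the CREB and ATF factors. Promoters were taken from RefSeq on GRCh38.p14 for 8 of the 10 genes, from 250 bases before to 50 bases after each start site. Those of DUSP4 and DUSP5 were not analysed here. The stretch printed is the 250 bases before the start site at chr5:172771196-172771445 on the minus strand, 5′ to 3′. Capitals mark the CRE (TGACGTCA), its half-sites (TGACG or CGTCA) and the TATA box (TATAAA, or TTTATA on the other strand):
DUSP1: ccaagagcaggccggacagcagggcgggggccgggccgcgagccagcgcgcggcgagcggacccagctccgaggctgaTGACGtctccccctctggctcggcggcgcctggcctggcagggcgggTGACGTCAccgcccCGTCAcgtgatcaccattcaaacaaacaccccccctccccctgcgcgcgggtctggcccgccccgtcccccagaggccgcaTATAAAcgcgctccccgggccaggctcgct
The first base of the CRE lies at -125 from the start site, and that of the TATA box at -30. There were 4 half-site matches, of which the pair at -125 and -122 overlap within the full CRE and the others begin at -172 and -111. Over 35116 promoters of the same length in the table, searched on both strands, 1.85% held the full CRE, 24.6% a half-site and 11.5% a TATA box. RefSeq lists a second start site for DUSP10, SPRED2 and SPRY2. The half-site also occurred at a start site of DUSP10, SPRED2 and SPRY2, and the TATA box at the second start site of SPRED2. The ETS motif (CCGGAA or TTCCGG), present in 17.2% of all promoters, was matched at SPRY1 and SPRY2. The AP-1 motif (TGACTCA or TGAGTCA, in 4.95% of all promoters) was matched at the second start site of SPRED2, the GC box (GGGCGG or CCGCCC, in 45%) at each gene but DUSP6, and the CArG box (in 1.29%) at none. None of the motifs searched was matched at DUSP6. A match describes the letters only.

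DUSP2 (ENSG00000158050, chromosome 2 of GRCh38 from 96143169 to 96145440) encodes a nuclear phosphatase first described in activated T cells. It was at 45.2, 43.8 and 42.3 CPM with DMSO and at 48.7, 59.3 and 56.8 CPM with AZD4573. The groups did not overlap, but the highest DMSO library and the lowest AZD4573 library were close. The means were 43.8 ± 1.48 and 54.9 ± 5.56 CPM (SD, n = 3), and the groups differed by 0.33 on the log2 scale (SE 0.0677, edgeR adjusted p = 6.1e-04). This rise of 1.26-fold depended on the scaling. With the mitochondrially encoded mRNAs as reference DUSP2 was lower, at -0.41 on the log2 scale (adjusted p = 5.5e-05). Over all alternatives the adjusted p ran from 9.2e-06 to 0.00803, where both ends belonged to rises. Set against the median gene, DUSP2 stood at 0.30 by either scaling, since a change of scaling shifts all genes by nearly the same amount.

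DUSP4 (ENSG00000120875, chromosome 8), a nuclear phosphatase induced by ERK, was at 41.3, 39.4 and 39.7 CPM with DMSO and at 34.0, 47.1 and 46.4 CPM with AZD4573. AZD4573 replicate 1 lay below each DMSO library and the other two lay above. The log2 fold change was 0.08 with a 95% interval from -0.12 to 0.29 (edgeR adjusted p = 0.443). Without AZD4573 replicate 1 it was 0.21 (adjusted p = 0.00195). Over all alternatives the adjusted p ran from 2.8e-06 to 0.997. The smallest belonged to a fall, at -0.66 under the mitochondrial scaling.

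DUSP10 and DUSP16 encode phosphatases that prefer JNK and p38 to ERK. DUSP10 (ENSG00000143507, chromosome 1) was at 59.0 ± 0.535 CPM with DMSO and 62.4 ± 4.76 CPM with AZD4573 (SD, n = 3). The groups overlapped, and the log2 fold change was 0.08 with an interval from -0.04 to 0.20 (edgeR adjusted p = 0.210). Without AZD4573 replicate 1 it was 0.12, at an adjusted p of 0.0491 (range over all alternatives from 5.9e-08 to 0.814). The smallest of these belonged to a fall, at -0.66 under the mitochondrial scaling. DUSP16 (ENSG00000111266, chromosome 12) was at 10.7, 9.28 and 8.77 CPM with DMSO and at 10.8, 11.2 and 11.2 CPM with AZD4573. All treated libraries lay above the DMSO libraries, although DMSO replicate 1 nearly reached them. Its log2 fold change of 0.20 (interval from 0.01 to 0.39) had an adjusted p of 0.0523 in the same test. Without DMSO replicate 1 it was 0.28 (adjusted p = 0.00931). Over all alternatives the adjusted p ran from 1.1e-04 to 0.312. The smallest belonged to a fall, at -0.54 under the mitochondrial scaling.

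SPRY1 and SPRY2 were barely detected. SPRY1 (ENSG00000164056, chromosome 4), an inhibitor of RAS signalling downstream of receptor tyrosine kinases, had 7, 7 and 3 counts with DMSO and 1, 0 and 0 with AZD4573. SPRY2 (ENSG00000136158, chromosome 13), its close relative, had 6, 15 and 13 counts with DMSO and 3, 0 and 4 with AZD4573. In the shallowest library, a count of 0 allows up to 0.0576 CPM of the library total. Summed over libraries, the AZD4573 rate was 0.0730 of the DMSO rate for SPRY1 (1 count against 17, exact 95% interval from 0.00175 to 0.466) and 0.255 for SPRY2 (7 against 34, from 0.0955 to 0.585). These intervals cover counting error only, since PCR copies are not told apart. With no filter on low counts, the edgeR adjusted p was 0.0561 for SPRY1 and 0.0579 for SPRY2, so that neither passed the test. SPRY2 also passed the filter in 4 of the 6 fits that left out a library, and it was called lower in 1 of them, without DMSO replicate 1 (log2 fold change -2.16, edgeR adjusted p = 0.0246, and from 0.0246 to 0.138 over the fits that tested it).

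SPRED2 (ENSG00000198369, chromosome 2) encodes a membrane protein that suppresses RAS and RAF activation, and it had at least 3240 counts in each library. It was at 68.8, 69.3 and 65.6 CPM with DMSO and at 63.6, 74.0 and 77.9 CPM with AZD4573. The groups overlapped through AZD4573 replicate 1, which was the lowest of the 6 libraries. The log2 fold change was 0.08 with a 95% interval from -0.06 to 0.22 (edgeR adjusted p = 0.272). Without AZD4573 replicate 1 it was 0.16 (adjusted p = 0.0103). Over all alternatives the adjusted p ran from 1.5e-07 to 0.854. The smallest belonged to a fall, at -0.66 under the mitochondrial scaling.

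DUSP1, DUSP5 and DUSP6 kept their direction and their call under each scaling. The remaining 5 genes tested moved with the reference. With the mitochondrially encoded mRNAs as reference, DUSP2, DUSP4, DUSP10, DUSP16 and SPRED2 all had negative log2 fold changes, from -0.41 for DUSP2 to -0.66 for DUSP4, each past the threshold. Set against the median gene under the same scaling, DUSP4, DUSP10 and SPRED2 stood between 0.05 and 0.06 under TMM, library size and mitochondrial scaling. Such values hardly change by construction, since a new scaling shifts all genes by nearly the same amount. Which reference describes the amount of RNA per cell was not tested.

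**Figure D2:**
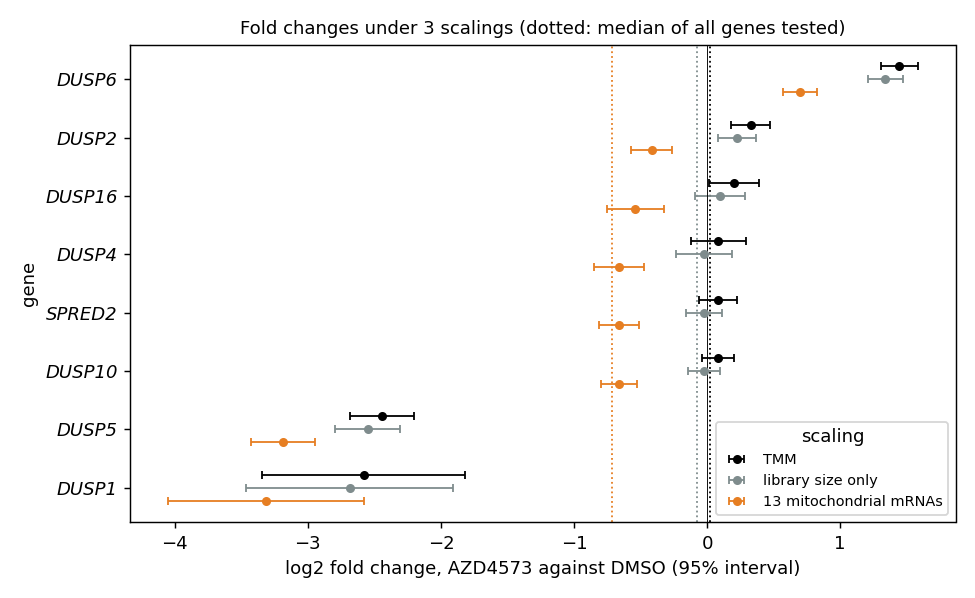
Log2 fold change (x axis) of the 8 genes tested (y axis) with 95% intervals under TMM (black), library size only (grey) and 13 mitochondrially encoded mRNAs (orange), where dotted lines are the median of all genes tested under each. DUSP6 stays to the right of 0 under each scaling (0.70 to 1.44) and DUSP5 and DUSP1 to the left, while the others lie closer to the dotted lines.

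Ratios of 2 transcripts within a library do not depend on how libraries are scaled. For each of 4 pairs, the log2 ratio was compared by a two-sided exact permutation test over the 6 libraries, whose smallest possible p is 0.1. The ratio of DUSP5 to DUSP6, the nuclear and the cytoplasmic ERK phosphatase, was 0.0544, 0.0592 and 0.0524 counts of DUSP5 per count of DUSP6 with DMSO. It was 0.00352, 0.00371 and 0.00390 with AZD4573. The groups were widely separated, by -3.89 on the log2 scale or 14.9-fold (exact permutation p = 0.1, adjusted over the 4 pairs p = 0.2). The ratio of DUSP1 to DUSP4 also separated the groups, by -2.62 on the log2 scale with SDs of 0.44 and 0.60 (n = 3, exact permutation p = 0.1, adjusted p = 0.2). By contrast, the ratio of DUSP10 to DUSP16, both directed at JNK and p38, overlapped between the groups. It ranged from 5.46 to 6.80 with DMSO and from 5.40 to 6.05 with AZD4573, a difference of -0.13 on the log2 scale (exact permutation p = 0.3, adjusted p = 0.4). The ratio of SPRY1 to SPRY2 rested on single counts and could not be resolved (difference -0.53, exact permutation p = 0.6, adjusted p = 0.6).

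**Figure D3:**
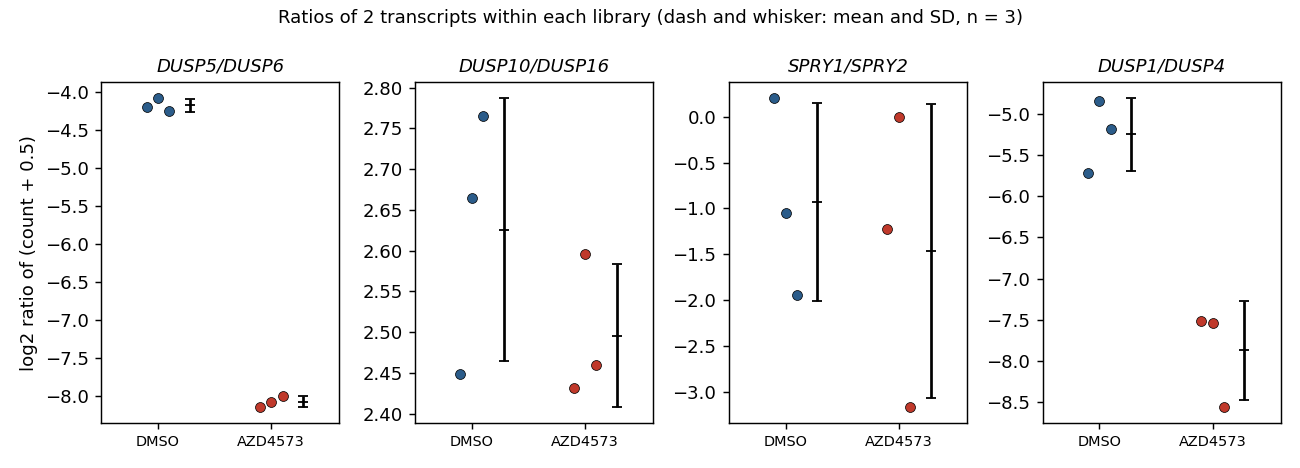
Log2 ratio of the counts (each plus 0.5) of 2 genes within each library (y axes, own range per pair) with DMSO (blue) and AZD4573 (red), with the mean and SD (n = 3) beside the points. The DUSP5/DUSP6 points sit near -4.18 with DMSO and near -8.07 with AZD4573, whereas those of DUSP10/DUSP16 and SPRY1/SPRY2 overlap.

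Levels of different genes were compared as CPM per kb of merged exons. With DMSO, DUSP6 was the highest at 71.6 ± 1.20 CPM per kb (SD, n = 3), followed by DUSP2 at 22.7 ± 0.767, DUSP10 at 20.9 ± 0.189 and SPRED2 at 12.3 ± 0.365. DUSP5 (6.03 ± 0.474) and DUSP4 (5.52 ± 0.142) came next and could not be ordered, since their ranges overlapped. They were followed by DUSP16 (1.34 ± 0.143), DUSP1 (0.534 ± 0.146), SPRY2 (0.0475 ± 0.0210) and SPRY1 (0.0190 ± 0.00757), and the ranges of SPRY2 and SPRY1 overlapped by a small margin. With AZD4573, DUSP6 was at 195 ± 20.9 CPM per kb (SD, n = 3) and remained first, and DUSP5 went from rank 5 to rank 7, below DUSP4 (5.84 ± 1.01) and DUSP16 (1.55 ± 0.0306), at 1.10 ± 0.167. DUSP6 made up 55.7% ± 0.198 of the summed CPM per kb of the 7 DUSP genes with DMSO and 76.7% ± 0.611 with AZD4573 (SD, n = 3). The share of DUSP5 went from 4.69% ± 0.304 to 0.433% ± 0.0253 (SD, n = 3). These shares do not depend on the scaling of libraries.

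The 4 genes called under TMM were the shortest of the 8 tested. DUSP2, DUSP1, DUSP6 and DUSP5 span 2272, 3100, 5267 and 13627 bases, of which DUSP1 and DUSP5 fell and DUSP6 rose. DUSP4, DUSP10, DUSP16 and SPRED2, which did not pass the test, span 17621, 40666, 89582 and 121787 bases. This is a description of 8 genes with no test, and under the mitochondrial scaling the longer genes were called as well. The canonical transcripts of DUSP1, DUSP2, DUSP4, DUSP5 and DUSP10 each have 4 exons.

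The 3′ UTRs were searched for the pentamer ATTTA, the core of AU-rich elements, which are bound by proteins that speed mRNA decay. In canonical transcripts of GENCODE release 44, DUSP1 held 4 copies in 666 bases, or 6.01 per kb, which is above 95.1% of 17004 coding genes with a 3′ UTR of at least 200 bases. DUSP2 held 3 copies in 654 bases (4.59 per kb, above 89.4%) and DUSP10 3 in 988 bases (3.04 per kb). DUSP6 held 1 copy in 2019 bases (0.495 per kb), and DUSP5 held none in 1107 bases. The median of all genes was 1.76 per kb, and 75.2% held at least 1 copy. DUSP1 and DUSP5 thus stood at opposite ends of this scale, and DUSP2 lay close to DUSP1. Decay of these mRNAs was not measured, and its part in the fold changes was not tested. Windows of 30 bases at the densest stretch of each 3′ UTR are shown for DUSP1 and DUSP6, which had the largest fall and rise among the 8 genes tested, and for DUSP2 and DUSP10, with ATTTA in capitals (GENCODE release 44, GRCh38, minus strand, 5′ to 3′):
DUSP1 (chr5:172768642-172768671): gggctggtccttATTTATTTAacttcaccc
DUSP2 (chr2:96143273-96143302): tgctcagctgacATTTAacactccctcccc
DUSP10 (chr1:221701502-221701531): taagaaaaaaaaATTTATTTAaaaatattt
DUSP6 (chr12:89348101-89348130): tttagagctggaATTTAttataagaatgta
In DUSP1 and DUSP10 a pair of copies overlaps in the window, whereas DUSP2 and DUSP6 show a single one. The longer motif TATTTAT, which overlaps ATTTA, was present in 35.7% of the 3′ UTRs. It occurred 4 times in DUSP4 (in 3962 bases) and 3 times each in DUSP1 (in 666 bases) and SPRY1 (in 1204 bases). SPRY2 held 2 copies, DUSP2 and SPRED2 held 1 each, and DUSP5, DUSP6, DUSP10 and DUSP16 held none.

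Of 15 further DUSP family genes, 14 were tested, of which 7 were called lower and 3 higher (13 and 1 under the mitochondrial scaling). Over all genes tested, 37.4% were lower and 37.3% higher, and 11878 of 17678 were lower under the mitochondrial scaling. Their median log2 fold change was -0.69, against 0.03 for all genes tested. DUSP3, a small phosphatase without a kinase-docking domain, had the largest fall of the list, from 18.4 ± 0.927 to 4.35 ± 0.322 CPM (SD, n = 3, log2 fold change -2.08). DUSP8, directed at JNK and p38, had the largest rise, from 6.63 ± 0.508 to 18.8 ± 1.26 CPM (log2 fold change 1.51), and some of its reads could be shared with pseudogene copies. Of 3 further Sprouty and Spred genes examined, SPRY4 and SPRED3 were higher and SPRED1 was lower (-0.56). SPRY4 went from 4.26 ± 0.521 to 8.86 ± 0.685 CPM (a difference of 1.06 on the log2 scale, edgeR adjusted p = 1.2e-06). SPRY4 had at least 283 counts in each library, against at most 15 for SPRY2, and its call held under the mitochondrial scaling (0.31), whereas that of SPRED3 did not. Among 6 phosphatases of other families that act on MAP kinases, 4 were tested and all 4 were lower, against the same 37.4% of all genes, with a median of -1.04. PTPN7, the hematopoietic tyrosine phosphatase that binds ERK and p38, went from 444 ± 7.97 to 200 ± 6.13 CPM (SD, n = 3, log2 fold change -1.16).

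Genes whose transcription is used as a readout of ERK activity were examined next. Of 7 such genes besides DUSP4, DUSP6 and SPRY2, 6 were tested, 5 were higher and none was lower under TMM, and 2 were higher and none lower under the mitochondrial scaling. Of all genes tested, 37.3% were higher and 37.4% lower under TMM, and 2144 of 17678 were higher under the mitochondrial scaling. The median log2 fold change of the 6 genes tested was 0.82 under TMM. Of the genes set aside, DUSP6 was higher under both scalings and SPRY2 had too few counts to be tested. DUSP4 did not pass under TMM (log2 fold change 0.08, edgeR adjusted p = 0.443) and was lower under the mitochondrial scaling (-0.66). DUSP1 and DUSP5, whose phosphatases also act on ERK, were not counted here and were lower under both scalings (-2.58 and -2.44 under TMM). The 5 genes higher under TMM were SPRY4, ETV4, ETV5, CCND1 and PHLDA1, whereas EPHA2 did not pass. SPRY4 is also on the list of Sprouty and Spred genes above, so that its rise is counted on both lists. CCND1, the gene of cyclin D1, had the largest log2 fold change (1.52) but was scarce, at 1.16 ± 0.214 CPM with AZD4573 (SD, n = 3). Those higher under the mitochondrial scaling were SPRY4 at 0.31 and CCND1 at 0.79. ETV4, ETV5, PHLDA1 and EPHA2 were named after their values were seen.

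The kinases of the cascades and their regulators are given beside the share of all genes tested, which was 37.4% lower and 37.3% higher under TMM, and 11878 lower and 2144 higher of 17678 under the mitochondrial scaling. Of 10 genes of the ERK cascade, 5 were lower and 4 higher (9 and 0 under the mitochondrial scaling), with log2 fold changes between -0.58 (BRAF) and 0.60 (MAPK3, which encodes ERK1), and scaled to the mitochondrially encoded mRNAs MAPK3 turned to -0.14. Of 10 tested genes of the JNK and p38 cascades, 5 were lower and 5 higher (9 and 1). MAP2K4, an activator of JNK, fell from 74.7 ± 3.73 to 19.8 ± 2.75 CPM (SD, n = 3, log2 fold change -1.92), and MAP2K6, an activator of p38, had a log2 fold change of 1.21. Of 9 MAP3 kinases, 7 were lower and none higher (9 and 0), with a median of -0.69. MAP3K1 fell from 12.8 ± 0.283 to 1.71 ± 0.380 CPM (SD, n = 3, log2 fold change -2.91), more than any other gene of the lists. Of 10 RAS activators, adaptors and scaffolds, 2 were lower, with SHOC2 at -1.35, and 4 were higher, with RASGRP2 at 0.81 (9 and 0 under the mitochondrial scaling, where RASGRP2 did not pass at 0.07). Of 6 RAS and RAF inhibitors, 3 were lower, with RASA2 at -1.06, and 1 was higher, PEBP1 at 0.23, which turned to -0.51 under the mitochondrial scaling (5 lower and 0 higher).

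**Figure D4:**
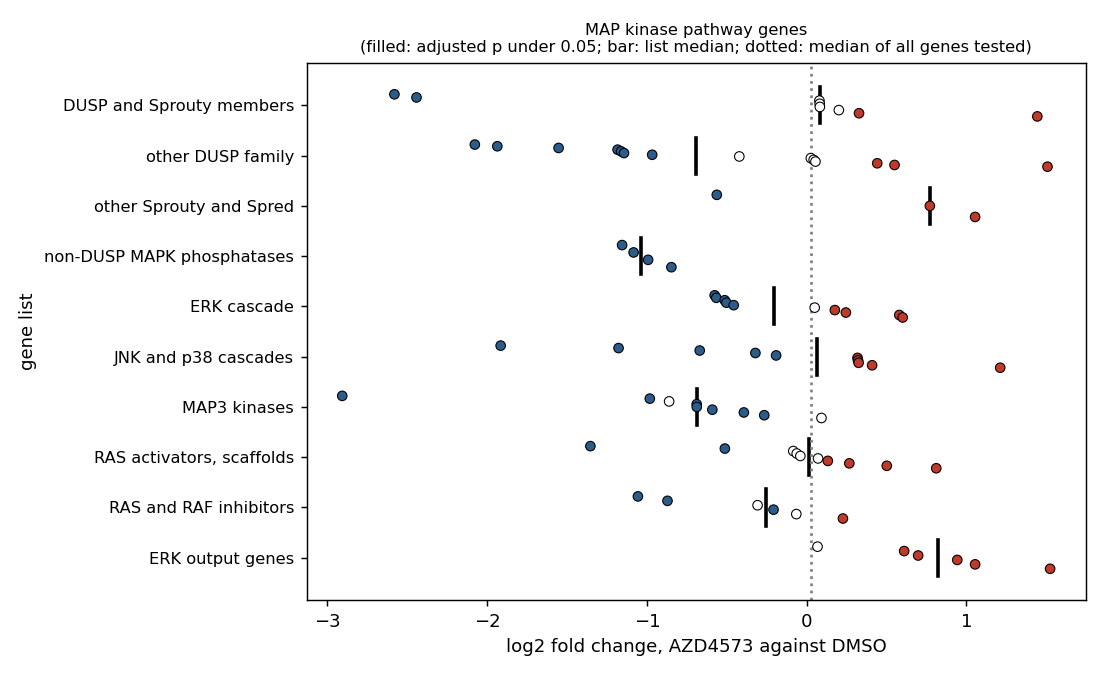
Log2 fold change (x axis) of each tested gene (points) by gene list (y axis), filled where the adjusted p was under 0.05 under TMM scaling (blue lower, red higher), with the list median (bar) and the median of all genes tested (dotted line, 0.03). The MAP3 kinases (median -0.69) lie mostly left of the line and the ERK output genes (median 0.82) right of it, while of the 8 DUSP and Spred genes tested DUSP1 and DUSP5 stand far left, DUSP6 far right and the other 5 near the line (0.08 to 0.33).

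The genes whose profile over the 6 libraries was most like that of DUSP6 were BCL2L1, ESRP1 and ZKSCAN1, at root-mean-square distances of 0.0482, 0.0571 and 0.0612 on the log2 CPM scale after centring, out of 9178 genes with a mean of at least 10 CPM. For DUSP1 they were TRIM21, SLX1A-SULT1A3 and GPATCH1, at the larger distances of 0.260, 0.281 and 0.289. DUSP1 itself lay below the 10 CPM asked of the other genes, at means of 1.08 CPM with DMSO and 0.179 CPM with AZD4573. The part of its low counts in these distances was not tested. The profiles share the 6 libraries and the treatment, so that likeness describes mainly the size of the change.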

How the data were processed

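RNA was measured by bulk RNA-seq in 3 DMSO and 3 AZD4573 libraries of H9 cells, grouped by their labels. The authors trimmed reads with Cutadapt 2.3, aligned them to GRCh38 with STAR 2.7.8a and deposited expected counts per gene from RSEM 1.3.3, whose default settings do not use strand. The values are whole numbers without normalization. Poly(A) selection is given in the labels, but rRNA depletion in the supplemental methods, and this could change which RNAs were captured. The table also held 5 reporter entries with no counts, which were left out.

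Genes were filtered with filterByExpr (minimum count 10), normalized by TMM and tested with edgeR 4.0.16 (R 4.3.3) in a quasi-likelihood model, with p-values adjusted after Benjamini and Hochberg. CPM use TMM library sizes, and errors are SD over 3 libraries. The procedure was tested on simulated counts. Between libraries of a group, counts differed beyond counting error (chi-square divided by its degrees of freedom 5.59 to 21.2). This cannot tell separate cultures from repeated preparations of the same culture.

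The 10 genes, the pathway lists and the alternatives were chosen with earlier results of these data known. For each list, the text names the largest fall and the largest rise among genes called with at least 1 CPM in the higher group, and further members where a small count is spelled out, named after their values were seen. It also names the 3 genes most like the lowest and the highest of those of the 10 that were tested. Alternatives were RLE factors, no factors, 13 mitochondrially encoded mRNAs as reference, no filter or a stricter one, omission of each library, a replicate block, DESeq2 1.42.0, fold thresholds of 1.5 and 2 and, for levels, the longest coding transcript. Positions came from GENCODE release 44, which held 61369 of 61541 gene IDs.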

Additional observations from a re-analysis of the deposited data

How the results depend on the processing

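DUSP1, DUSP5 and DUSP6 kept their direction and their call under each alternative in which they were tested (12, 14 and 14). DUSP1 was not tested under the filter of at least 10 counts in every library, which left 1 of the genes lower. With mitochondrial mRNAs as the reference, 7 of the genes were lower and 1 higher, and log2 fold changes turned to -0.41 for DUSP2, -0.66 for DUSP4, -0.66 for DUSP10, -0.54 for DUSP16 and -0.66 for SPRED2. This follows the shift of all genes, as do -0.14 for MAPK3 and -0.51 for PEBP1. With library size only, DUSP4 turned to -0.0229, DUSP10 to -0.0247 and SPRED2 to -0.0234, which also follows that shift. DUSP16 passed the threshold with RLE factors (0.21, adjusted p = 0.0496) and with at least 10 counts in every library (0.24, adjusted p = 0.0239). The cause was not tested.

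With each library left out in turn, the log2 fold change ranged from 5e-04 to 0.21 for DUSP4, from 0.0154 to 0.12 for DUSP10, from 0.13 to 0.28 for DUSP16 and from 0.0151 to 0.16 for SPRED2. Without AZD4573 replicate 1, 5 of the genes were higher in place of 2, and over all 6 fits the number ranged from 2 to 5. The difference in the ratio of SPRY1 to SPRY2 turned to 0.03 without DMSO replicate 1 and to 0.32 without AZD4573 replicate 3, within a range from -1.27 to 0.32. Adding the counts of ENSG00000274021 to DUSP6 or of DUSP5P1 to DUSP5, alternatives chosen after seeing the data as were the fits of ratios without a library, changed no call.

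At a fold change of at least 1.5 or at least 2, stricter by construction, 1 of the genes was higher in place of 2. Of the 71 pathway genes tested, 34 were lower and 23 higher. These became 22 and 10 at a fold of at least 1.5, 13 and 4 at a fold of at least 2, and 59 and 4 under the mitochondrial scaling. Per kb of the longest coding transcript, DUSP4 (7.23 CPM per kb) stood above DUSP5 (6.17) with DMSO. Whether the replicate numbers pair the libraries was not settled by these data. The correlations of deviations were -0.0208, 0.0417 and 0.0316, and 4 of 6 libraries correlated best with their own number, a hint from the data only. With the number as a replicate block, 6524 genes were lower and 6447 higher in place of 6606 and 6596, with DUSP6 at 1.44 and DUSP5 at -2.45. Depth limits DUSP1, SPRY1 and SPRY2.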
